A study of Mus musculus with 10 samples.

Results

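Scn4b, Trdn, Jph1 and Atp2b1, genes of membrane excitability, the triad and calcium handling, were followed in denervated mouse muscle. They were chosen by name, as the spots whose single gene symbol in the platform annotation is 1 of these 4. This gave 28 of the 9216 spots of each array, which form 7 of 2304 probes and 4 of the 89 genes with a single symbol. Scn4b had 2 probes of 1 sequence record (BC050045), Trdn had 2 probes of 1 record (AK085836, called probes 1 and 2 here) and 1 probe of another (AV342290, probe 3), and Jph1 (AK081751) and Atp2b1 (AK027941) had 1 probe each. The tissue was tibialis anterior (TA) muscle, a fast-twitch hindlimb muscle, of CD1 mice aged 3 months, an outbred strain. Denervated muscle and contralateral muscle, the same muscle of the other side, were labelled with different dyes and hybridised together on 1 two-colour array. There were 10 arrays, with a first labelling and a reverse labelling at each of 5 time points: time 0 and days 1, 3, 7 and 14 after denervation. The sources used here do not say how the nerve was interrupted, which sex the mice were, how many animals an array covered or whether both arrays of a time point shared RNA extracts.

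In skeletal muscle the action potential runs along the surface membrane and into the transverse tubules. At the triad, where a tubule meets 2 cisternae of the sarcoplasmic reticulum, it opens the calcium release channels that start contraction. Scn4b codes for sodium channel beta-4, an accessory membrane protein that alters the gating of voltage-gated channels. Triadin (Trdn) is a membrane protein of the junctional reticulum that links the store protein calsequestrin to the release channel. Junctophilin 1 (Jph1) holds the tubule and the reticulum membranes together at the triad. Atp2b1 encodes the plasma membrane calcium pump PMCA1, which moves calcium out of the cell. Loss of the nerve is known to change the electrical properties of the fibre membrane and to lead to atrophy.

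Values are given as log2 of the denervated over the contralateral signal, so a value of 0 is no difference and negative values are lower in denervated muscle. Each probe was summarised on an array by the median over its 4 spots. Errors are the SD over 2 arrays of 1 day unless another is named, and a probe is called where its limma adjusted p over 2304 probes was under 0.05. In these tests both arrays of a day count as samples, so the p-values rest on array-to-array spread, and that spread may be technical. Over all probes the arrays of a day correlated best at day 3 (Spearman rho 0.66), then at day 7 (0.50), time 0 (0.32), day 14 (0.26) and day 1 (0.10). Pearson's r was lower, from -0.29 at day 1 to 0.27 at day 3. The direction was taken from the labels, which give 1 direction for all arrays. No pair of arrays of the same labelling had an r below -0.07. An inversion of all reverse-labelling arrays together would leave these correlations unchanged, so they do not test the direction. Of the 25 pairs of opposite labelling, 2 had an r below -0.3, with a lowest of -0.38, and both joined arrays of different days. Of 10 fibre markers fixed for this work, 1 had a named probe, nebulin (Neb). No named probe covered the markers of leukocytes, fibroblasts, endothelium, Schwann cells, adipocytes or satellite cells. A ratio of denervated over contralateral muscle shows a difference in a marker between the sides and does not identify the tissue. Neb stood at 0.62 ± 0.07 at time 0 and 0.18 ± 0.01 at day 1. It then stood at -0.23 ± 0.64 (day 3), -0.22 ± 0.07 (day 7) and 1.25 ± 0.32 (day 14), and was called at day 14 alone. In whole muscle, less RNA per fibre and a smaller share of fibre RNA in the tissue cannot be told apart, and the part that other cell types played in the results below was not tested.

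Scn4b was lower in denervated muscle from day 3 onward, and both of its probes were called on each of days 3, 7 and 14. At time 0 and at day 1 its ratios lay near 0. From day 3 the denervated muscle held between 38.6% and 50.6% of the contralateral Scn4b signal. In these tests against 0, no other probe of the 4 genes was called on more than 1 day.

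Scn4b is also the gene for which a promoter sequence is shown, because it alone of the 4 genes was called against 0 on more than 1 day. The RefSeq table of promoters (GRCm38.p6) had entries for 2 of the 4 genes, 1 for Scn4b and 2 for Atp2b1. The line below gives the 250 bases before the Scn4b start at chr9:45138374-45138623 on the plus strand, 5′ to 3′, with the 1 match to CCAAT, read here as ATTGG, in capitals.
Scn4b: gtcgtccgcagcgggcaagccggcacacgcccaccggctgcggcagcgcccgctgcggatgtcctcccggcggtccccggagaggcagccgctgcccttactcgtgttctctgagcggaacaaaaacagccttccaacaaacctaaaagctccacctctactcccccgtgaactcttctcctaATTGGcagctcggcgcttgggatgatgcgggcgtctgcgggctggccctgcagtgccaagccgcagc
The match begins 67 bases before the start. Both strands of this window were searched for CCAAT, for the E-box CANNTG (the core bound by myogenic basic helix-loop-helix factors), and for the MEF2 site and the CArG box, which were given their usual degenerate letters. CCAAT occurs in 33.8% of the 32851 promoter windows of that length. The other motifs had 0 matches in Scn4b, against 66.2% of all windows with an E-box, 2.92% with a MEF2 site and 1.47% with a CArG box. All 4 motifs also had 0 matches in both Atp2b1 windows. The G and C content was 66% for Scn4b and 78.4% and 80.8% for Atp2b1, against a median of 52.4%. These are descriptions of the letters and say nothing of which factor binds.

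Scn4b probe 1 read 0.31 and -0.17 at time 0 on the first and the reverse labelling. It read 0.15 and 0.10 at day 1, and -1.01 and -1.14 at day 3. At day 7 it read -0.66 and -1.31, and at day 14 -1.44 and -1.31. Every array from day 3 on was therefore lower than every array of time 0 and day 1, and the widest gap between labellings after time 0 was that of day 7.

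Scn4b probe 2 read -0.42 and 0.02 at time 0. It read 0.18 and -0.01 at day 1, and -1.25 and -1.31 at day 3. At day 7 it read -1.33 and -1.06, and at day 14 -1.15 and -1.30. The 6 late arrays lay within -1.33 to -1.06, and again none overlapped with the early ones. How many of all probes kept late and early arrays apart, as probes 1 and 2 did, was not counted.

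At day 3 probe 1 stood at -1.08 ± 0.09 and probe 2 at -1.28 ± 0.04 (SD, n = 2 arrays; limma adjusted p = 0.0225 and 0.00605). At day 7 they stood at -0.98 ± 0.46 and -1.20 ± 0.19 (limma adjusted p = 0.0212 and 0.00611). At day 14 they stood at -1.37 ± 0.09 and -1.22 ± 0.11 (limma adjusted p = 0.00786 and 0.00448). Of all probes, 7.99% were called at day 3, 11.7% at day 7 and 14.3% at day 14 in either direction, and 5.6%, 7.29% and 5.6% were called lower. The counts called lower (129, 168 and 129 probes) depended on single arrays. With the first-labelling array of the day left out they were 21, 54 and 57, and with the reverse-labelling array left out they were 32, 61 and 138. Called lower on each of these 3 days were 32 probes, or 1.39% of 2304, and both Scn4b probes were among them. In the order of all probes from the lowest mean ratio, probe 1 ranked 76, 87 and 81 on these days and probe 2 ranked 44, 48 and 100. Below 0 on all 6 arrays of these days were 10.8% of all probes, and at a mean of -1 or lower on each of the 3 days were 9 probes, or 0.391%, which included probe 2 and not probe 1.

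Between day 1 and day 3 the change passed for 1 of the 2 probes. From day 1 to day 3 probe 2 changed by -1.36 (95% interval -1.86 to -0.87, limma adjusted p = 0.0404) and probe 1 by -1.20 (-1.84 to -0.57, adjusted p = 0.135), in a contrast called for 1.04% of all probes (0.694% lower). Probe 2 also passed from day 1 to day 7 (-1.28, limma adjusted p = 0.0303, called for 3.52% of all probes and 2.08% lower), and both probes passed from day 1 to day 14 (-1.50 and -1.31, called for 3.47% and 0.651% lower). From day 3 to day 14 probe 1 differed by -0.30 (95% interval -0.93 to 0.34, limma adjusted p = 0.505) and probe 2 by 0.06 (-0.43 to 0.55, adjusted p = 0.895), in a contrast called for 7.51%. A further fall or a partial return within these intervals could not be seen with 2 arrays a day. The tests between days other than time 0 were added after the values had been seen.

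With time 0 taken as the background, both Scn4b probes were lower at day 14, by -1.44 ± 0.26 (SE) for probe 1 and -1.02 ± 0.20 for probe 2 (limma adjusted p = 0.0413 and 0.0492), in a contrast called for 4.08% of all probes and 0.998% lower. At days 3 and 7 probe 2 passed (-1.08 and -0.995, limma adjusted p = 0.0409 and 0.0361) and probe 1 did not (-1.14 and -1.05, adjusted p = 0.0512 and 0.055). Those contrasts were called for 6.99% and 10.8% of all probes, 4.47% and 5.73% lower, and day 1 minus time 0 for 0%. Leaving out any 1 of the 4 arrays of a difference ended each of these 4 calls. At day 14 the limma adjusted p was then from 0.0561 to 0.16, at -1.20 to -1.68 for probe 1 and -0.80 to -1.24 for probe 2. For probe 2 the ratios ran from -0.86 to -1.30 at day 3 and from -0.77 to -1.22 at day 7, and the mean of the 4 spots also ended its calls at day 3 (limma adjusted p = 0.055) and day 14 (0.0526).

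With 1 array of day 3 left out, both probes lost the call against 0 at ratios of similar size. Probe 1 then stood at -1.14 and -1.01 and probe 2 at -1.31 and -1.25 (limma adjusted p from 0.0613 to 0.204). At day 7 probe 1 stood at -1.31 (limma adjusted p = 0.0406) without the first labelling and at -0.66 (adjusted p = 0.119) without the reverse one, and probe 2 stood at -1.06 without the first labelling (adjusted p = 0.0561) and kept the call without the reverse one (-1.33, adjusted p = 0.025). At day 14 both kept it without either array.

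The time 0 value of probe 1 rested on spots that disagreed. On the first labelling its spots in the upper part of the print block averaged -0.46 and those in the lower part 1.01, while on the reverse labelling they averaged -0.23 and -0.05. On the late arrays its upper and lower pairs differed by at most 0.44 in size, and the values of both pairs were below 0 on each of them. The lower pair alone lost the calls of probe 1 against 0 at day 3 (-1.16, limma adjusted p = 0.0654) and day 7 (-1.03, 0.0629). The upper pair alone kept them (-1.02 and -0.95, limma adjusted p = 0.035 and 0.0346). The 2 probes of Scn4b carry the same sequence record in different print blocks, and over days 1, 3, 7 and 14 they differed by 0.08 ± 0.17 (SD, n = 4 time points; exact two-sided sign-flip permutation p = 0.375). The smallest p that 4 time points allow in this test is 0.125, so no difference of this kind could pass.

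**Figure D1:**
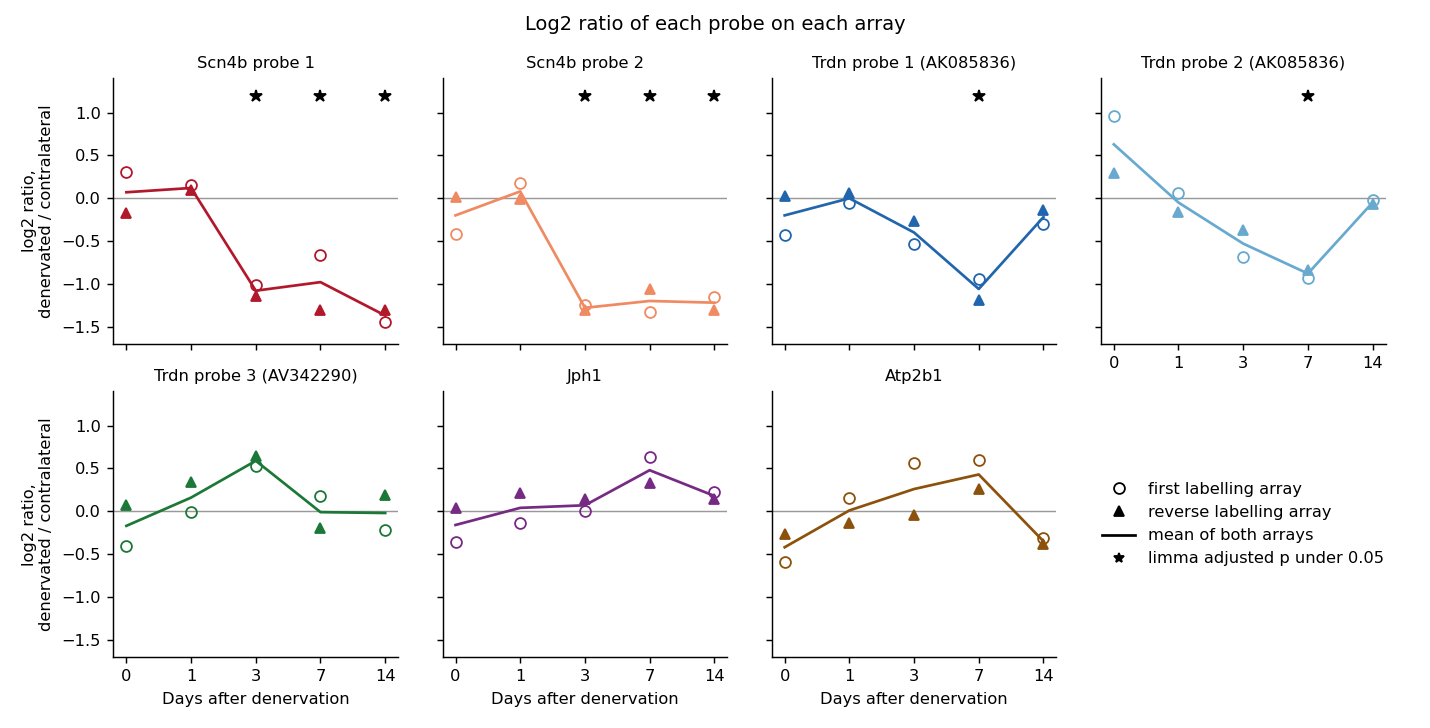
Log2 ratio of denervated over contralateral muscle (vertical axis) by day after denervation (horizontal axis, evenly spaced categories) for each of the 7 probes. Circles are first-labelling arrays, triangles reverse-labelling arrays, the line is their mean and stars mark a limma adjusted p under 0.05. Both Scn4b probes lie at -0.66 or lower on all 6 arrays from day 3, and Trdn probes 1 and 2 are lowest at day 7.

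The 2 sequence records of Trdn read apart at days 3 and 7. The probes of AK085836 were lower in denervated muscle at day 7, when both were called, at 47.9% and 54.2% of the contralateral signal. The probe of AV342290 was called on no day and had its highest ratio at day 3. The annotation gives 1 gene for both records, and which transcripts each record matches was not analysed here.

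Trdn probe 1 read -0.43 and 0.03 at time 0, -0.06 and 0.06 at day 1, and -0.53 and -0.27 at day 3. It read -0.94 and -1.19 at day 7, and -0.30 and -0.14 at day 14. The day 7 arrays were the lowest of the 10. The share of all probes whose 2 arrays of some day were the lowest or the highest of the 10 was not counted. At day 7 its mean was -1.06 ± 0.18 (SD, n = 2 arrays; limma adjusted p = 0.00955), and at day 3 it was -0.40 ± 0.18 (adjusted p = 0.153). The day 7 call was lost with the mean of the 4 spots (-1.13, limma adjusted p = 0.152), with the upper pair (-1.20, 0.275) and with the lower pair (-1.05, 0.0682).

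Trdn probe 2 read 0.96 and 0.29 at time 0, 0.06 and -0.16 at day 1, and -0.69 and -0.37 at day 3. It read -0.93 and -0.84 at day 7, and -0.02 and -0.07 at day 14. As with probe 1, both day 7 arrays were lower than all others. The day 7 mean was -0.88 ± 0.06 (SD, n = 2 arrays; limma adjusted p = 0.0252), and the day 3 mean was -0.53 ± 0.22 (adjusted p = 0.119). At day 7, 11.7% of all probes were called and 7.29% of all probes were called lower, beside 4 of the 7 probes described here, all lower.

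Trdn probe 3 read -0.40 and 0.07 at time 0, -0.01 and 0.34 at day 1, and 0.53 and 0.65 at day 3. It read 0.18 and -0.20 at day 7, and -0.22 and 0.19 at day 14. Its day 3 arrays were the highest of the 10, on the day when both arrays of probes 1 and 2 were below 0. Of all probes, 35.3% had both day 3 arrays below 0. At day 3 its mean was 0.59 ± 0.09 (SD, n = 2 arrays; limma adjusted p = 0.104). The day 3 ratio passed (limma adjusted p = 0.0259) in a fit on the 1286 probes with all spots of an array within 2 log2 units. That fit called 408 of the 1286 probes at day 3, against 184 of 2304 in the fit on all probes. It left out Trdn probes 1 and 2. With print blocks centred the day 3 ratio of probe 3 was 0.45 (limma adjusted p = 0.17). At day 7 the mean of probe 3 was -0.01 (95% interval -0.45 to 0.44, limma adjusted p = 0.998).

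Taken within each array, the mean of Trdn probes 1 and 2 minus probe 3 was -1.14 and -0.97 at day 3 and -1.11 and -0.82 at day 7. It was 0.67 and 0.09 at time 0, 0.01 and -0.39 at day 1, and 0.06 and -0.29 at day 14. The records thus stood apart on all 4 arrays of days 3 and 7 and lay closer on the others. Over days 1 to 14 the difference averaged -0.58 ± 0.50 (SD, n = 4 time points, negative in 4 of 4; exact two-sided sign-flip permutation p = 0.125, the smallest this test allows, and 0.375 after Benjamini-Hochberg adjustment over 3 such comparisons). Probes 1 and 2, which share a record, differed by -0.04 ± 0.16 over the same time points (exact permutation p = 0.75). On the arrays of time 0, which that test left out, they differed by -1.39 and -0.26. An average over all 3 probes was called at day 7 as well, at -0.65 (limma adjusted p = 0.016), a value that lies between the 2 records and matches neither.

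From day 7 to day 14 Trdn probes 1 and 2 each differed by 0.84 (95% intervals 0.33 to 1.36 and 0.23 to 1.44), and neither change passed (limma adjusted p = 0.0841 and 0.114, in a contrast called for 0.781% of all probes). The day 14 value of probe 1 depends on its spots. On the first labelling the 4 spots read 0.22, -0.82, 0.22 and -3.19, and on the reverse labelling -0.12, 5.40, -0.25 and -0.16. The 3 values at 0.22 and -0.16 are the value that recurred to the last digit on that array, in 118 and 157 spots, and the sources used here do not say what that value stands for. With such spots left out, probe 1 stood at -1.06 at day 14 (limma adjusted p = 0.0968) in place of -0.22. Probe 2 had no such spot at day 14 and stood at -0.05 ± 0.03.

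The time 0 value of Trdn probe 2 also rested on spots that disagreed. On the first labelling its upper pair averaged -0.44 and its lower pair 2.12, and on the reverse labelling they averaged 0.13 and 0.49. With time 0 subtracted this probe was lower at day 3 (-1.16, limma adjusted p = 0.0485) and at day 7 (-1.51, adjusted p = 0.0224). With the upper pair of spots alone its time 0 mean was -0.16 and with all 4 spots 0.63, and these 2 differences include that gap. Without the first labelling of time 0 they were -0.82 and -1.18 and did not pass (limma adjusted p = 0.141 and 0.0703), and without the reverse one they were -1.49 and -1.85 and passed (0.044 and 0.0259). Both also failed without either array of the later day (limma adjusted p from 0.0552 to 0.233), and the day 3 difference failed with the mean of the 4 spots (-1.14, 0.0623). Probe 1 at day 7 minus time 0 was -0.87 and did not pass (limma adjusted p = 0.0507). The call of probe 2 at day 7 against 0 was lost with the lower pair alone (-0.49, limma adjusted p = 0.417), and those of both probes were lost with recurring spot values left out, at the same ratios (adjusted p = 0.108 and 0.129). With 1 array of day 7 left out, probe 1 stood at -1.19 and -0.94 and probe 2 at -0.84 and -0.93, and neither was called (limma adjusted p from 0.0511 to 0.179).

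**Figure D2:**
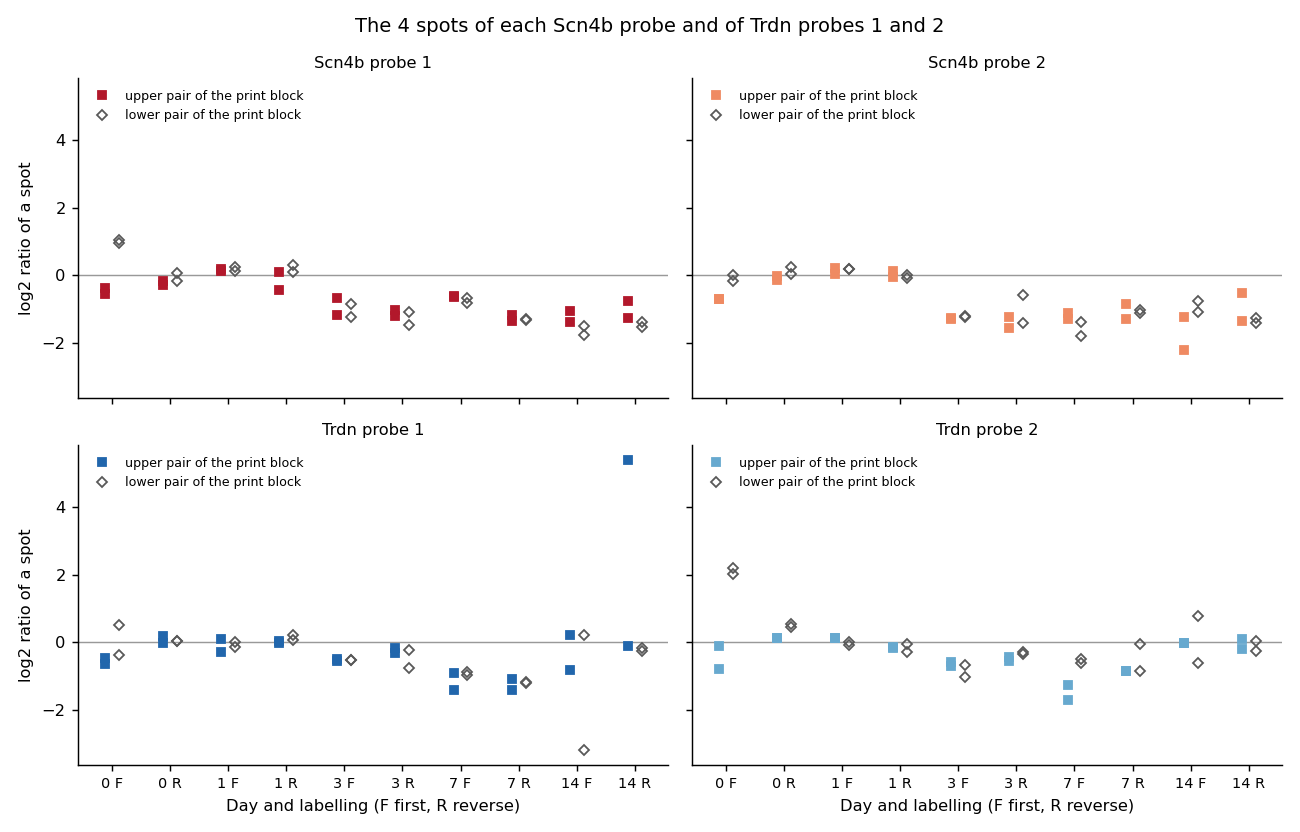
Log2 ratio of each of the 4 spots (vertical axis) of the Scn4b probes and of Trdn probes 1 and 2 on each of the 10 arrays (horizontal axis, day with F for first and R for reverse labelling). Filled squares are the upper pair and open diamonds the lower pair of the print block. The lower pairs of Scn4b probe 1 and Trdn probe 2 lie apart from the upper pairs on the first labelling of time 0, and single spots of Trdn probe 1 reach -3.19 and 5.40 at day 14.

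Jph1 was called on no day. It read -0.36 and 0.04 at time 0, -0.14 and 0.21 at day 1, and 0.00055 and 0.14 at day 3. It read 0.63 and 0.33 at day 7, and 0.23 and 0.14 at day 14. All 6 arrays from day 3 were above 0, as were those of 9.77% of all probes, and the day 7 arrays were the highest of the 10. The day 7 mean was 0.48 ± 0.21 (SD, n = 2 arrays; 95% interval 0.11 to 0.85, limma adjusted p = 0.0932). In a fit on the 1286 probes with all spots of an array within 2 log2 units, the same ratio passed (limma adjusted p = 0.034). That fit called 442 of the 1286 probes at day 7, against 270 of 2304 in the fit on all probes. With print blocks centred the day 7 ratio was 0.30 (limma adjusted p = 0.182). From time 0 to day 7 Jph1 differed by 0.64 (95% interval 0.12 to 1.16, limma adjusted p = 0.104). Jph1, not called, and Trdn probes 1 and 2, all of triad proteins, stood on opposite sides of 0 on both arrays of day 7. Trdn probe 3 read 0.18 and -0.20 on these arrays. Of all probes, 71.7% had both day 7 arrays on 1 side of 0.

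Atp2b1 was also called on no day. It read -0.59 and -0.26 at time 0, 0.16 and -0.14 at day 1, and 0.57 and -0.04 at day 3. It read 0.60 and 0.26 at day 7, and -0.31 and -0.38 at day 14. Its arrays were on 1 side of 0 at time 0 (below), day 7 (above) and day 14 (below), and split at days 1 and 3. Of all probes, 62.7%, 71.7% and 64.8% had both arrays on 1 side at time 0, day 7 and day 14. At days 1 and 3 the shares were 51.4% and 74.6%. The largest mean was 0.43 ± 0.24 at day 7 (SD, n = 2 arrays; 95% interval -0.02 to 0.88, limma adjusted p = 0.182), and the day 14 mean was -0.35 ± 0.05 (-0.79 to 0.10, adjusted p = 0.252). From time 0 to day 7 it differed by 0.85 (95% interval 0.22 to 1.49, limma adjusted p = 0.0879), and from day 7 to day 14 by -0.77 (-1.41 to -0.14, adjusted p = 0.144). At time 0 its mean of -0.42 ± 0.23 was lower than all but 5.43% of the probes (limma adjusted p = 0.356).

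**Figure D3:**
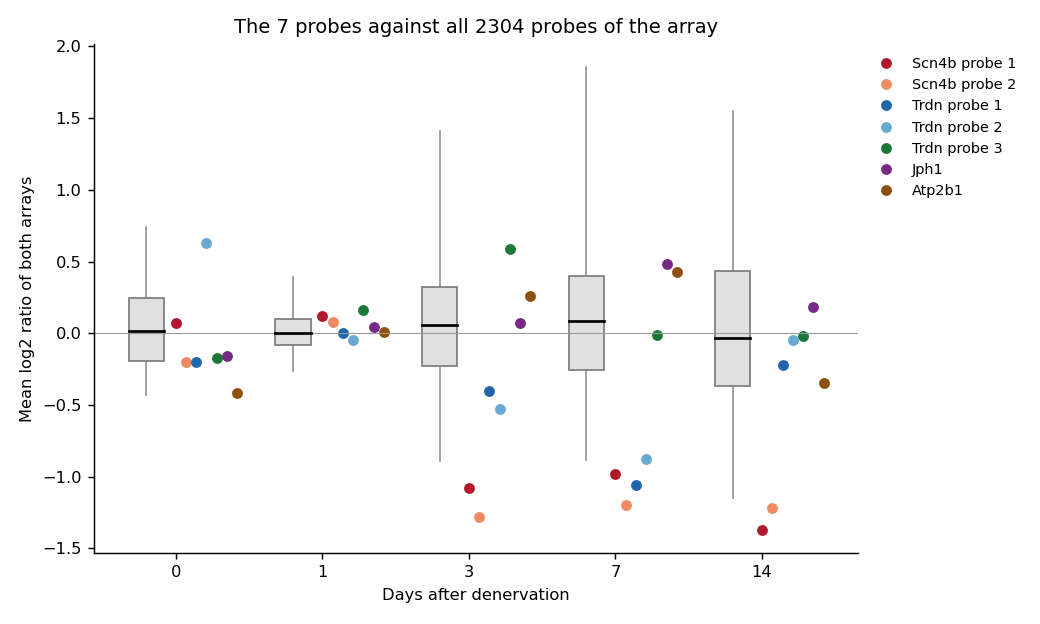
Mean log2 ratio of both arrays (vertical axis) by day (horizontal axis). Grey boxes span the quartiles of all 2304 probes with the median as a line, grey bars span the 5th to the 95th percentile, and coloured points are the 7 probes. The Scn4b probes lie below the grey bar on days 3, 7 and 14, from -0.98 to -1.37, and Jph1 and Atp2b1 lie at 0.48 and 0.43 on day 7.

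Across the 7 probes, 2 were called at day 3, 4 at day 7 and 2 at day 14, all lower, and 0 at time 0 and at day 1. Of all probes, 7.99%, 11.7% and 14.3% were called at days 3, 7 and 14, and 5.6%, 7.29% and 5.6% were called lower. Over all probes 0% were called at time 0 and 0.0434% at day 1 (1 probe), although 14.3% and 1.91% had an unadjusted limma p under 0.05. The median ratio of the 7 probes was -0.17 at time 0 and 0.04 at day 1, then -0.40 (day 3), -0.88 (day 7) and -0.22 (day 14). That of all probes was 0.01, -0.00037, 0.05, 0.08 and -0.03 in the same order. Since 5 of the 7 probes belong to Scn4b and Trdn, these medians follow those 2 genes. The spread between the arrays of a day, pooled over the 5 time points, was an SD of 0.18 to 0.26 for the 7 probes, against a median of 0.29 over all probes.

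**Figure D4:**
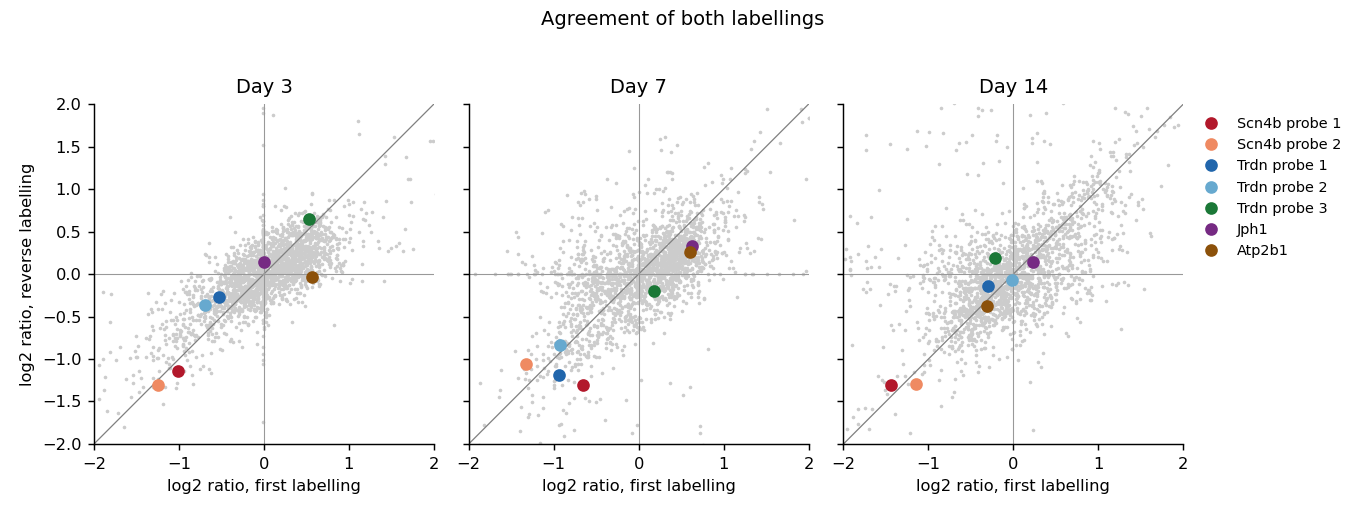
Log2 ratio on the reverse labelling (vertical axis) against the first labelling (horizontal axis) at days 3, 7 and 14. Grey dots are all probes within 2 log2 units of 0, coloured dots are the 7 probes, and the diagonal marks equal values. Both Scn4b probes lie in the lower left on each day, Trdn probes 1 and 2 join them at day 7, and Atp2b1 at day 3 reads 0.57 and -0.04.

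Over the whole time course the tests used time-point means, so that both arrays of a day counted as 1 value. The mean over days 1 to 14 was -0.83 ± 0.66 for Scn4b probe 1 and -0.91 ± 0.66 for probe 2 (SD, n = 4 time points; limma adjusted p = 0.523 for both, unadjusted 0.0292 and 0.0214). The slope on log2(day + 1) was -0.41 ± 0.11 (SE) for Scn4b probe 1 and -0.34 ± 0.13 for probe 2 (limma adjusted p = 0.401 and 0.475). For Trdn, Jph1 and Atp2b1 the mean over days 1 to 14 ran from -0.42 (Trdn probe 1) to 0.19 (Jph1) and the slope from -0.23 (Trdn probe 2) to 0.12 (Jph1), with adjusted limma p of 0.523 or more. Days 7 and 14 minus days 1 and 3 ran from -0.70 (Scn4b probe 1) to 0.28 (Jph1), with adjusted limma p of 0.893 or more. These 3 limma tests called 0 of 2304 probes (0%), while 8.42%, 9.72% and 4.82% had an unadjusted p under 0.05. A gene that steps down between day 1 and day 3 adds its own course to the spread in the first test, and 4 or 5 values limit all 3.

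Of 73 further genes of excitability, the triad and calcium handling listed for this work, 1 had a named probe: Gnas, the stimulatory G protein alpha subunit. Gnas was called on no day, and its lowest ratio was -0.66 ± 0.06 at day 3 (SD, n = 2 arrays; limma adjusted p = 0.0589). Of 13 genes known to respond to denervation, among them the acetylcholine receptor subunits, Myog and Fbxo32, 1 had a named probe: Mef2a, a muscle transcription factor. It was called higher at day 7, at 0.92 ± 0.10 (limma adjusted p = 0.0368), when 4.43% of all probes were called higher. The other listed genes were not analysed here, since the annotation used names 97 of the probes.

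The named genes with the most similar course were found by the root mean square difference of the 5 time-point means, over the 88 other named genes. For Scn4b the nearest was Chek1, a cell cycle checkpoint kinase, at 0.54 log2 units from probe 1 and 0.61 from probe 2, against medians of 1.00 and 1.08 over the named genes. Chek1 stood at -0.07 at day 3, where Scn4b was already near its late level. For Trdn probe 1 the nearest was Zbtb16, a zinc finger transcription factor, at 0.28, with -0.63 at day 3, -0.67 at day 7 and 0.16 at day 14. For Trdn probe 2 it was Hspb2, a muscle small heat shock protein, at 0.23, with -0.52 at day 7. Trdn probe 3 was nearest to Tgoln1, a trans-Golgi membrane protein, at 0.12, with 0.55 at day 3. Jph1 was nearest to Sh3glb1, a membrane-bending protein, at 0.11, and Atp2b1 to Ube2d2a, a ubiquitin-conjugating enzyme, at 0.06. Atp2b1 and Ube2d2a stood at -0.42 and -0.49 at time 0, 0.43 and 0.45 at day 7, and -0.35 and -0.45 at day 14. These distances describe 5 means from shared arrays and carry no test. Probes with ratios near 0 are close to many genes, as the medians of 0.36 for Trdn probe 3, 0.39 for Jph1 and 0.41 for Atp2b1 show.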

How the data were processed

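RNA of denervated and contralateral muscle was compared on 10 two-colour arrays. Per the labels, each channel started from 8 µg of RNA, primed with oligo-dT. Spots were read in QuantArray, and the authors normalized them in SNOMAD, globally and by lowess, per the labels. The deposited log2 ratios are therefore relative to the bulk of an array's spots. The sources used here give no background correction, spot filter or intensity. Signal over background is unknown, and the number of arrays limits the precision.

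The 97 annotated probes recurred at 4 fixed positions in their print block, and this layout was applied to all spots. Of them 93 had 1 symbol and 4 had several. No low-value filter was applied, so all 7 probes described entered the tests. The filter on spot agreement, an alternative, left 5 of them and dropped Trdn probes 1 and 2. Tests used limma (version 3.58.1, R 4.3.3), two-sided, with Benjamini-Hochberg adjustment over 2304 probes and a threshold of 0.05, and were tested on simulated data. Named were the members, measured genes of the fixed lists and the 3 named genes nearest to each probe, of which the text gives the first. The members, lists and tests were chosen with earlier results of these data known. Alternatives covered spot summary, centring, recurring values, spot agreement, gene averages, robust moderation, the labelling orientation as a replicate block, subtraction of time 0 and left-out arrays and days, and, added after the values were seen, each pair of spots. Both labellings share only an orientation across days, so no pairing of samples was assumed.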

Additional observations from a re-analysis of the deposited data

Results flagged for a closer look

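Of 70 differences between days (7 probes and 10 pairs of days), 10 passed the limma test of the difference itself (adjusted p under 0.05 over 2304 probes), all in probes of Scn4b and Trdn. Over all 2304 probes the 6 pairs of days they come from were called for 1.04% to 10.8%. All 6 differences from time 0 among them were lost when some single array was left out, and the 4 from day 1 were not refitted in that way. Scn4b probe 2 differed from time 0 by -1.08 at day 3, -0.995 at day 7 and -1.02 at day 14, and from day 1 by -1.36, -1.28 and -1.31 (limma adjusted p from 0.0237 to 0.0492). Scn4b probe 1 passed for day 14 alone, by -1.44 from time 0 and -1.50 from day 1 (adjusted p = 0.0413 and 0.0369). Trdn probe 2 differed from time 0 by -1.16 at day 3 and -1.51 at day 7 (adjusted p = 0.0485 and 0.0224). The differences within a set share their time 0 or day 1 arrays. The time 0 spots of Scn4b probe 1 and Trdn probe 2 disagreed on the first labelling, by 1.47 and 2.56 log2 units between the lower and the upper pair.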

How the results depend on the processing

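Of the 14 calls on single probes (8 against 0 and 6 against time 0), 0 changed direction under any alternative. The calls of both Scn4b probes against 0 at day 14 were kept in every alternative fit, while those against time 0 were lost without any single array. The number of the 7 probes called at day 3 was 1 with the lower pair of spots, an alternative chosen after seeing the data, and 0 to 0 without either array of the day. At day 7 it was 3 with the mean of the 4 spots or the upper pair, and 2 with recurring values left out. It was 1 with the lower pair and 2 with time 0 subtracted, and it fell without either array of the day. Against time 0 it was 0 at day 3 and 1 at day 14 with the mean of the 4 spots, and without single arrays it ran from 0 to 1 at day 3, 0 to 1 at day 7 and 0 to 0 at day 14. A day with 1 array left borrows its spread from the other days and has less power. Without single arrays of day 7, Scn4b probe 1 stood at -1.31 and -0.66. With orientation entered as a replicate block, the counts were 2, 4 and 2 at days 3, 7 and 14, as without it. The spot agreement filter left 5 of the 7 probes and dropped Trdn probes 1 and 2. It called 3 of the 5 at day 3 and 3 at day 7, among them both Scn4b probes, lower. The remaining call was higher, for Trdn probe 3 at day 3 (0.59) and for Jph1 at day 7 (0.48). Over all probes, calls at day 3 fell from 184 to 35 and 51 without the first and the reverse labelling, and those at day 7 from 270 to 85 and 168. At day 14 lower and higher calls were 129 and 201, and 57 and 271 or 138 and 125 without the first or the reverse labelling. At day 7 they were 168 and 102, and 54 and 31 or 61 and 107. With 1286 probes of close spots they were 408, 442 and 482 at days 3, 7 and 14. The slope test, which called 0 probes, called 51 with the time point as a random block and 32 with the orientation block added, none of them among the 7.

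Signs turned in 67 refits, none of a call, and the cause was not tested. With the upper pair they were -0.34 (Scn4b probe 1) and -0.16 (Trdn probe 2) at time 0, -0.01 (Scn4b probe 1) and -0.00028 (Atp2b1) at day 1, -0.02 (Jph1) at day 3 and 1.17 (Trdn probe 1) at day 14. With the lower pair they were 0.04 (Scn4b probe 2) and 0.04 (Trdn probe 1) at time 0, 0.05 (Trdn probe 1) and -0.04 (Jph1) at day 1, 0.03 (Trdn probe 3) at day 7, and 0.15 (Trdn probe 3) and -0.0049 (Jph1) at day 14. With probes averaged they were -0.07 (Scn4b) and 0.09 (Trdn) at time 0, 0.04 (Trdn) at day 1 and -0.11 (Trdn) at day 3. With the mean of the spots they were 0.0043 (Trdn probe 1) and -0.0015 (Jph1) at day 1, and 0.17 (Trdn probe 1) at day 14, or 0.26 with time 0 subtracted. With print blocks centred they were -0.01 (Atp2b1, day 1), -0.03 (Jph1, day 14), -0.03 (Trdn probe 3, slope) and -0.00073 (Jph1, late minus early). With arrays centred they were 0.01 and 0.04 (Trdn probes 2 and 3, day 14). With time 0 subtracted they were 0.20 (Trdn probe 1, day 1), 0.16 and 0.15 (Trdn probe 3, days 7 and 14) and 0.08 (Atp2b1, day 14). The Atp2b1 mean was -0.02 without day 7 and -0.08 on reverse arrays, where the Trdn probe 3 slope was -0.03. Late minus early was 0.07 and 0.07 (Scn4b probe 2 and Trdn probe 2) without day 1, 0.24 (Trdn probe 2) without day 7, and for Atp2b1 0.03 without day 3, 0.29 without day 14 and 0.03 on reverse arrays.

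Without single arrays the ranges that crossed 0 were, at time 0, -0.17 to 0.31 and -0.42 to 0.02 (Scn4b probes 1 and 2), -0.43 to 0.03 and -0.40 to 0.07 (Trdn probes 1 and 3) and -0.36 to 0.04 (Jph1). At day 1 they were -0.01 to 0.18 (Scn4b probe 2), -0.06 to 0.06, -0.16 to 0.06 and -0.01 to 0.34 (Trdn probes 1 to 3), -0.14 to 0.21 (Jph1) and -0.14 to 0.16 (Atp2b1). Later they were -0.04 to 0.57 (Atp2b1, day 3) and -0.20 to 0.18 and -0.22 to 0.19 (Trdn probe 3, days 7 and 14). Against time 0 they were -0.18 to 0.30 (Scn4b probe 1), -0.03 to 0.43 (Trdn probe 1) and -0.00042 to 0.40 (Jph1) at day 1, -0.43 to 0.02 (Trdn probe 1) at day 3, and -0.08 to 0.40 (Trdn probe 3) at day 7. At day 14 they were -0.25 to 0.21 and -0.09 to 0.39 (Trdn probes 1 and 3) and -0.08 to 0.24 (Atp2b1).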
